A study of Homo sapiens and Mus musculus with 12 samples.

Results

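The 10 genes described here are a fixed set of macrophage genes, Lyz2, C1qa, C1qb, C1qc, Cd14, Ms4a7, Csf1r, Cd68, Mrc1 and Cd163, matched by symbol in a table of 17383 mouse genes. All 10 were found. Their RNA was measured in bulk colon tissue of C57BL/6J mice aged 12 weeks, with 3 libraries from Zfp280c knock-out animals and 3 from wild-type animals. The series also holds 6 libraries of a human cell line, which were not analysed here. Zfp280c encodes a zinc finger protein, and the comparison asked which transcripts differ when it is deleted. The sources used here do not give how the allele was made, the sex of the animals, the segment of colon taken, or whether each library came from 1 animal. The p-values therefore measure the spread between these libraries.

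Macrophages are phagocytes that lie under the colonic epithelium and along its muscle, where they take up bacteria and dying cells. Monocytes from blood replenish many of them, and signalling through the receptor encoded by Csf1r keeps them alive. The set covers secreted defence proteins (complement C1q and lysozyme), surface receptors for growth factors, bacterial products, sugars and haemoglobin, and a lysosomal membrane protein.

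The libraries differed in ways that the genotypes do not explain. Zfp280c stood at 0.09, 0.09 and 0.22 FPKM in knock-out libraries, against 2.48, 2.25 and 3.17 FPKM in wild-type libraries, in the direction of the labels. HOX genes, which mark position along the gut, set wild-type replicates 1 and 3 apart. A position score compared proximal HOX genes (Hoxb6, Hoxb7, Hoxb8) with 5 distal ones (Hoxa13, Hoxb13, Hoxd11, Hoxd12, Hoxd13) as the difference of their mean log2(FPKM + 1). It was 2.68, 1.28 and 1.78 in knock-out libraries, against -2.43, 1.88 and -4.42 in wild-type replicates 1, 2 and 3. All 6 libraries held RNA of epithelium and muscle, with 917 to 1061 FPKM of the epithelial gene Epcam and 30.2 to 53.7 FPKM of the smooth muscle gene Myh11. FPKM summed to between 491900.5 and 507206.3 per library. Read depth is not given in the sources used here and was not estimated, so no counting interval is given.

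Most of the macrophage genes had lower mean levels in knock-out colon, no difference passed the test, and wild-type replicate 2 had values like those of the knock-outs. Of the 10 genes, 9 had a mean of at least 1 FPKM and were tested, all except Cd163. All 9 had negative log2 fold changes (knock-out minus wild-type), with a median of -0.44, against 55.4% negative and a median of -0.02 over the 11366 genes tested. In limma, 0 of the 9 passed at an adjusted p under 0.05, as did 0% of all genes in either direction. Even the deleted gene, Zfp280c, did not pass (-1.67 ± 0.14, adjusted p = 0.123, limma). At an unadjusted p under 0.05, 2 of the 9 were lower, Cd14 and Ms4a7, against 6.48% of all genes. The groups did not overlap in 1 of the 9, Ms4a7, against 9.79% of all genes lower without overlap. In bulk tissue, fewer macrophages and less RNA per macrophage cannot be told apart.

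**Figure D1:**
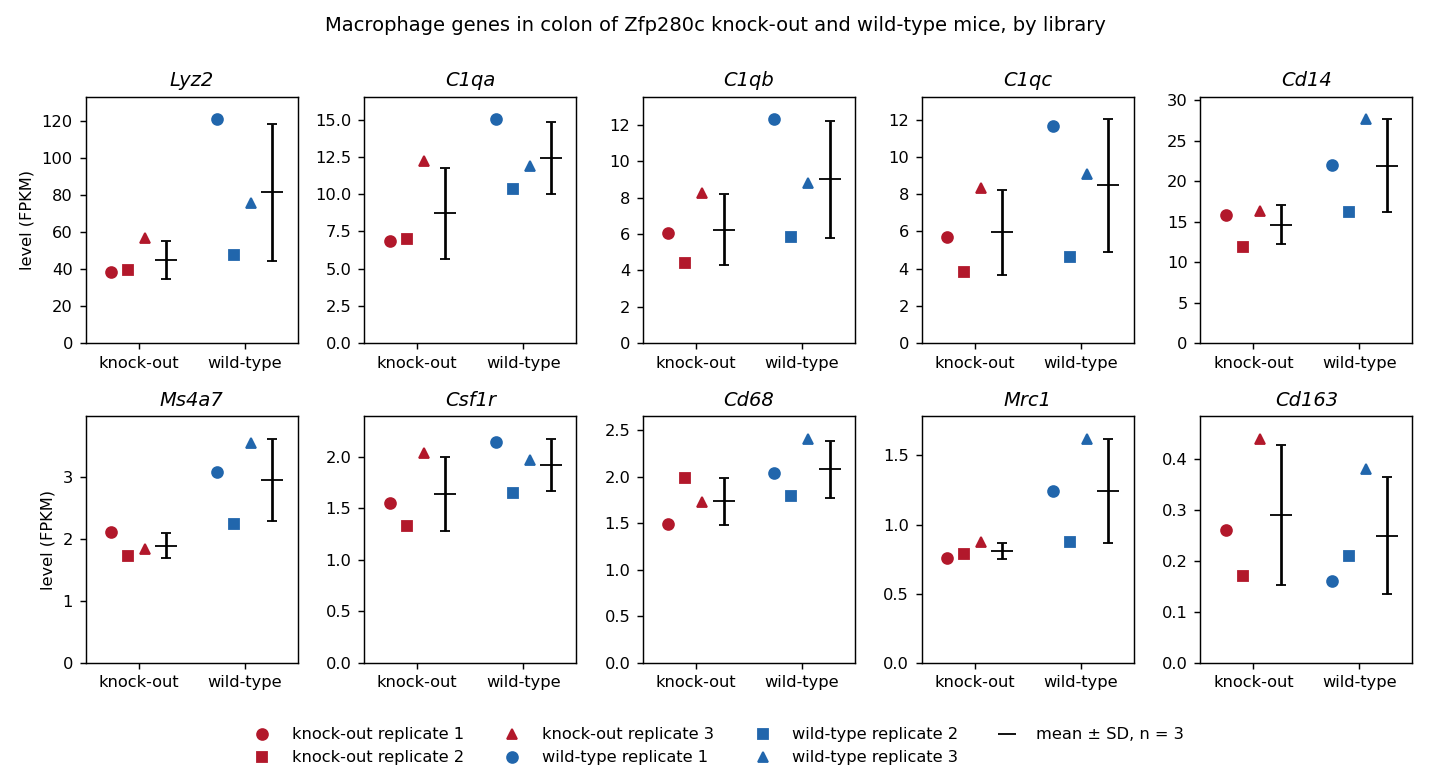
Level in FPKM (linear axes starting at 0) of each of the 10 macrophage genes in 3 knock-out and 3 wild-type colon libraries; symbols mark the replicate number and black bars the mean ± SD. Wild-type replicates 1 and 3 hold the highest value of 9 genes, and wild-type replicate 2 lies within the knock-out range for 9 of 10.

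The order of the levels was nearly the same in every library. FPKM are scaled by transcript length, so levels can be compared between genes. Lyz2 was at rank 1, Cd14 at 2, C1qa at 3, Mrc1 at 9 and Cd163 at 10 in all 6 libraries. C1qb and C1qc shared ranks 4 and 5, with FPKM ratios between 0.967 and 1.26, and did not differ beyond their spread. Ms4a7, Cd68 and Csf1r shared ranks 6 to 8, and Cd68 and Csf1r overlapped within each group. The range ran wide: Lyz2 averaged 63.3 FPKM over the 6 libraries, above or equal to 92.3% of genes in the table, and Cd163 averaged 0.27 FPKM, above or equal to 22.8%.

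C1q is the recognition unit of the classical complement pathway. It is assembled from A, B and C chains, and tissue macrophages are a main source of it. C1qa (Entrez ID 12259) was measured at 6.88, 7 and 12.2 FPKM in knock-out libraries, against 15.1, 10.3 and 11.9 FPKM in wild-type libraries. C1qb (12260) stood at 6.08, 4.38 and 8.27 FPKM in knock-out libraries, against 12.3, 5.86 and 8.81 FPKM in wild-type libraries. C1qc (12262) stood at 5.7, 3.8 and 8.36 FPKM in knock-out libraries, against 11.7, 4.65 and 9.11 FPKM in wild-type libraries. For each chain the groups overlapped, wild-type replicate 1 was highest, and knock-out replicate 3 was the highest of the knock-outs.

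The 3 chains stood at about the same fraction of wild-type. Knock-out means were 70.1%, 69.4% and 70.1% of wild-type for C1qa, C1qb and C1qc. The log2 fold changes were -0.50 ± 0.23, -0.45 ± 0.29 and -0.42 ± 0.36 (SE), with adjusted p of 0.406, 0.501 and 0.600 in limma. For C1qc the 95% interval ran from -1.28 to 0.43 on the log2 scale, so it holds both lower and higher levels in knock-outs. Single libraries moved these estimates. The estimate for C1qb was -0.25 without knock-out replicate 2, -0.21 without wild-type replicate 1 and -0.69 without wild-type replicate 2. For C1qc it was -0.18 without knock-out replicate 2, -0.66 without knock-out replicate 3, -0.17 without wild-type replicate 1 and -0.76 without wild-type replicate 2.

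The proportions between the chains varied more among libraries than between genotypes. The ratio of C1qa to C1qc was 1.21, 1.84 and 1.46 in knock-out libraries, against 1.29, 2.22 and 1.30 in wild-type libraries. Its log2 difference was -0.07 (exact two-sided permutation p = 0.8). C1qb to C1qc averaged 1.07 ± 0.0817 in knock-out and 1.09 ± 0.151 in wild-type libraries (SD, n = 3 each; exact permutation p = 1). With 3 against 3 libraries the smallest p this test allows is 0.1. In both groups replicate 2 had the largest share of C1qa relative to the other chains.

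Genes that act with C1q were mixed in direction. Of 12 other genes around the classical pathway, 9 were tested, with 5 negative and 4 positive, a median of -0.07 and 0 that passed. The proteases that join C1q, C1ra and C1s1, stood at -0.27 and -0.19. C2, which the C1 complex cleaves, stood at 3.36, 2.6 and 2.8 FPKM in knock-out libraries, against 1.53, 2.2 and 1.54 FPKM in wild-type libraries. Its groups did not overlap in the opposite direction to the C1q chains, against 7.13% of all genes higher without overlap (0.51 ± 0.14, adjusted p = 0.396, limma). C4b and C3 stood at -0.07 and 0.06.

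Lyz2 encodes the lysozyme of macrophages and neutrophils, which cuts bacterial cell walls. Lyz2 (17105) stood at 38.6, 39.6 and 56.8 FPKM in knock-out libraries, against 121, 47.8 and 76.0 FPKM in wild-type libraries. Wild-type replicates 1 and 3 lay above all knock-outs, and wild-type replicate 2 lay among them. The mean was 45.0 ± 10.3 FPKM in knock-out and 81.7 ± 37.1 FPKM in wild-type libraries (SD, n = 3 each), 55.1% of wild-type. Its log2 fold change was -0.77 ± 0.34 (unadjusted p = 0.0579, adjusted p = 0.396, limma; exact permutation p = 0.2). It had the most negative estimate of the set with all 6 libraries, and it moved to -0.44 without wild-type replicate 1.

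**Figure D2:**
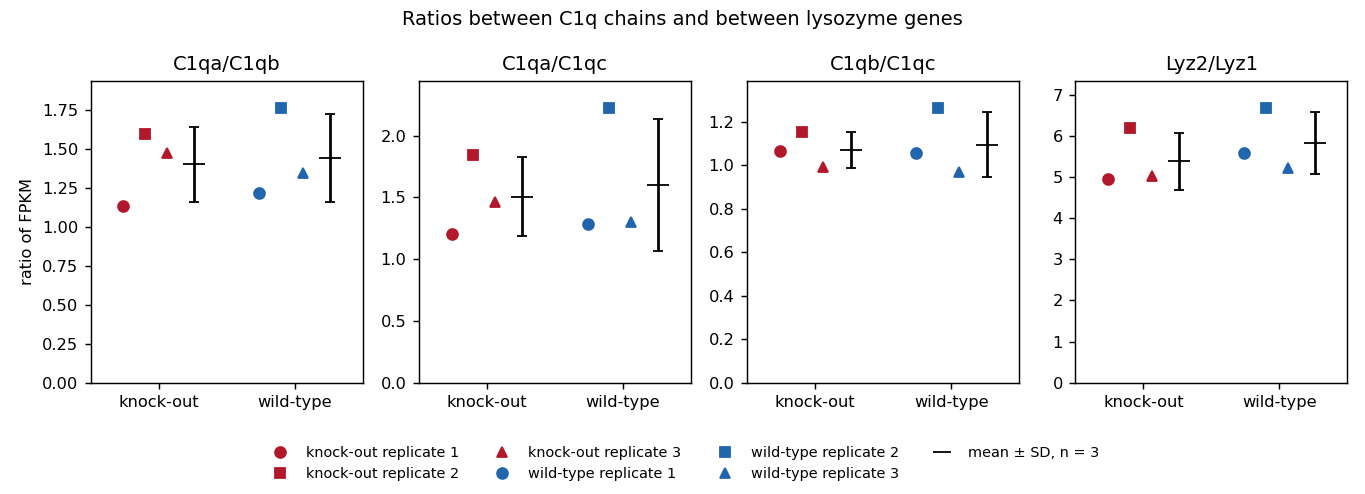
Ratio of FPKM between pairs of C1q chains and between Lyz2 and Lyz1, in knock-out and wild-type libraries (linear axes starting at 0, mean ± SD). Replicate 2 of each group has the highest value of every ratio in its group, and the means differ by less than the spread within groups.

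A close copy of Lyz2, Lyz1, is best known from Paneth cells of the small intestine. Reads from near-identical copies can be shared between genes in counting, and the way the authors treated them is not given in the sources used here, so the split between the copies is uncertain. Lyz1 stood at 7.77, 6.39 and 11.3 FPKM in knock-out libraries, against 21.7, 7.16 and 14.6 FPKM in wild-type libraries. Lyz2 exceeded Lyz1 4.96 to 6.67 times, with a mean ratio of 5.39 ± 0.692 in knock-out and 5.82 ± 0.757 in wild-type libraries (exact permutation p = 0.5). Lyz1 thus kept a similar proportion to Lyz2 in each library. Another Paneth cell gene, Mmp7, ran the other way, with 3.33, 1.47 and 2.77 FPKM in knock-out libraries, against 0.26, 2.55 and 0.06 FPKM in wild-type libraries.

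Cd14 encodes a co-receptor that hands bacterial lipopolysaccharide to the receptor made of Tlr4 and Ly96. Cd14 (12475) stood at 15.8, 11.9 and 16.3 FPKM in knock-out libraries, against 22.0, 16.2 and 27.7 FPKM in wild-type libraries. Knock-out replicate 3 lay just above wild-type replicate 2, and this was the only overlap between the groups. The mean was 66.7% of wild-type, and the log2 fold change -0.53 ± 0.21 (95% interval -1.04 to -0.03; adjusted p = 0.396, limma; exact permutation p = 0.2).

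Among the partners of Cd14, Ly96 stood at -0.20 and Tlr4 at -0.01, both with overlapping groups, and Lbp, the serum carrier of lipopolysaccharide, was below the minimum level. Of 10 genes around this receptor 7 were tested, with 5 positive and 2 negative and a median of 0.05, and 0 passed. Tlr2, the receptor for bacterial lipoproteins, ran opposite to Cd14, with 16.3, 12.3 and 17.4 FPKM in knock-out libraries, against 4.78, 12.6 and 2.2 FPKM in wild-type libraries (1.36 ± 0.49, adjusted p = 0.396, limma). Irak4, a kinase downstream of both receptors, stood at 0.36 ± 0.12.

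Ms4a7 encodes a membrane protein of the MS4A family that is found in tissue macrophages. Ms4a7 (109225) stood at 2.11, 1.72 and 1.84 FPKM in knock-out libraries, against 3.07, 2.23 and 3.54 FPKM in wild-type libraries. All knock-outs lay below all wild-types, though the gap between knock-out replicate 1 and wild-type replicate 2 was small. The mean was 1.89 ± 0.200 FPKM in knock-out and 2.95 ± 0.664 FPKM in wild-type libraries (SD, n = 3 each), 64.1% of wild-type. The log2 fold change was -0.44 ± 0.15 (unadjusted p = 0.0256, adjusted p = 0.396, limma; exact permutation p = 0.1, the smallest possible).

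Relatives of Ms4a7 were mixed. Of 15 other MS4A genes listed, 13 were in the table and 10 were tested, with 7 negative and 3 positive, a median of -0.11 and 0 that passed. Ms4a4d came nearest to Ms4a7, with 1.27, 1.61 and 1.73 FPKM in knock-out libraries, against 3.24, 1.97 and 2.89 FPKM in wild-type libraries (-0.53 ± 0.17, adjusted p = 0.396, limma). Ms4a6d stood at -0.33 ± 0.15, Ms4a4a at -0.12 and Ms4a6c at -0.09. Ms4a4b stood at 0.51 and Ms4a18 at 0.93.

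Csf1r encodes the receptor for the growth factors CSF1 and IL-34 and is a general marker of monocytes and macrophages. Csf1r (12978) stood at 1.55, 1.33 and 2.04 FPKM in knock-out libraries, against 2.15, 1.65 and 1.97 FPKM in wild-type libraries. Knock-out replicate 3 lay above wild-type replicates 2 and 3. Its estimate was the closest to 0 among the 9 genes tested, -0.15 ± 0.14 (95% interval -0.49 to 0.19; adjusted p = 0.636, limma), with a knock-out mean at 85.3% of wild-type. The estimate moved to -0.067 without knock-out replicate 2, to -0.26 without knock-out replicate 3 and to -0.097 without wild-type replicate 1.

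Of the ligands of this receptor, Il34 stood at 1.13, 1.43 and 1.75 FPKM in knock-out libraries, against 3.51, 1.23 and 5.84 FPKM in wild-type libraries. Wild-type replicates 1 and 3 were again high and wild-type replicate 2 was not (-0.76 ± 0.39, adjusted p = 0.427, limma). Csf1 stood at 0.86, 0.83 and 0.66 FPKM in knock-out libraries, against 1.01, 0.71 and 0.99 FPKM in wild-type libraries, below the minimum for testing. Of the 8 genes listed for this axis 5 were tested, with 3 negative, 2 positive and 0 that passed. Tyrobp, the signalling adaptor of several myeloid receptors, stood at -0.35 ± 0.27, and the receptor subunit gene Csf2ra at 0.35 ± 0.18.

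Cd68 encodes a glycoprotein of late endosomes and lysosomes of macrophages. Cd68 (12514) stood at 1.49, 1.99 and 1.73 FPKM in knock-out libraries, against 2.04, 1.79 and 2.41 FPKM in wild-type libraries. The groups overlapped through wild-type replicate 2, and knock-out replicate 2, the lowest library for 5 other genes of the set, was the highest knock-out for Cd68. The log2 fold change was -0.17 ± 0.13 (adjusted p = 0.570, limma), with a knock-out mean at 83.5% of wild-type. The log2 fold change moved to -0.10 without knock-out replicate 1 and to -0.094 without wild-type replicate 3.

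General lysosomal genes showed no shared direction. All 12 were tested, with 7 negative and 5 positive, a median of -0.03 and 0 that passed. Npc2, which binds cholesterol, stood at -0.68 ± 0.26 and the protease gene Ctsz at -0.40 ± 0.15. The protease gene Lgmn stood at 0.65 ± 0.21 and the membrane protein gene Lamp2 at 0.27 ± 0.08. Over the list the groups did not overlap in 3 genes lower (Npc2, Ctsz and Lamp1, the last named after its values were seen) and 2 higher (Lgmn and Lamp2), against 9.79% lower and 7.13% higher without overlap over all genes.

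The scavenger receptors Mrc1 and Cd163 were the lowest of the set and differed from each other. Mrc1 (17533), the mannose receptor CD206, stood at 0.76, 0.79 and 0.87 FPKM in knock-out libraries, against 1.24, 0.87 and 1.62 FPKM in wild-type libraries. The highest knock-out and the lowest wild-type had the same value, so the groups touched. The log2 fold change was -0.30 ± 0.15 (adjusted p = 0.425, limma), a knock-out mean at 64.9% of wild-type. The added 1 FPKM shrinks the fold changes of such low genes, and with 0.1 FPKM added it was -0.53.

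Cd163 (93671), the receptor for haemoglobin bound to haptoglobin, stood at 0.26, 0.17 and 0.44 FPKM in knock-out libraries, against 0.16, 0.21 and 0.38 FPKM in wild-type libraries. Its order of libraries was its own: wild-type replicate 1, the highest library for 5 of the other genes, was the lowest for Cd163. The mean was 0.29 ± 0.137 FPKM in knock-out and 0.25 ± 0.115 FPKM in wild-type libraries (SD, n = 3 each; exact permutation p = 0.6). Values this low are printed with 2 decimals and no depth, and their counting error was not estimated.

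Of 8 genes for haemoglobin uptake and iron handling 6 were tested, with 3 negative and 3 positive, and 0 passed. Hmox1, the haem-degrading enzyme, stood at 2.96, 2 and 3.22 FPKM in knock-out libraries, against 8.95, 1.85 and 4.9 FPKM in wild-type libraries. Slc40a1, the iron exporter, stood at 84.2, 61.0 and 78.7 FPKM in knock-out libraries, against 131, 49.8 and 201 FPKM in wild-type libraries. For both genes wild-type replicates 1 and 3 were highest and wild-type replicate 2 was lowest. Ftl1, the ferritin light chain, stood at -0.46 ± 0.18 (adjusted p = 0.396, limma). Its groups did not overlap, against 9.79% of all genes lower without overlap. Hp, haptoglobin, was at or below 0.89 FPKM.

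Within the set, genes fell into loose patterns over the 6 libraries. As a description, Pearson's r of log2(FPKM + 1) was 0.98 between C1qb and C1qc, 0.95 between C1qb and Csf1r, 0.96 between Cd14 and Ms4a7, and 0.94 between Ms4a7 and Mrc1. C1q chains and Csf1r were highest in wild-type replicate 1, while Cd14, Ms4a7, Cd68 and Mrc1 were highest in wild-type replicate 3. Cd68 was the least like the others, with r between 0.33 and 0.85. These values share the same libraries, and much of the variation separates wild-type replicates 1 and 3 from the other libraries.

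The genes outside the set whose pattern was most like the mean of the 9 tested members were Iqcd, Zdhhc24, Dvl2, Ttl, Mat2b, Tacc2, Prdm4 and Pecam1, with r of 0.994 to 0.998 over 6 libraries. None of these except Pecam1, an endothelial and leukocyte adhesion gene, was on a cell type list used here. Many genes followed the same pattern: 2.34% of the 11366 genes tested were at least as like it as Lyz2, and 25.2% at least as like it as Cd68. Each member is itself part of that mean, which raises its own r and lowers these shares.

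Leaving out wild-type replicate 2 turned 3 of the 9 genes into calls. Without it, Lyz2 (-1.10 ± 0.24, adjusted p = 0.0268, limma), Cd14 (-0.73 ± 0.16, adjusted p = 0.0297) and Ms4a7 (-0.58 ± 0.13, adjusted p = 0.0288) fell in knock-out colon. This was 3 of 9 genes, against 7.19% of the 11344 genes tested that were then called lower and 9.21% called higher. The other 6 did not pass: C1qb stood at -0.69 (adjusted p = 0.107), C1qc at -0.76 (0.113), C1qa at -0.61 (0.146), Mrc1 at -0.42 (0.0873), Cd68 at -0.24 (0.304) and Csf1r at -0.22 (0.389). Knock-outs lay below both remaining wild-types in 7 of 9 genes, all except C1qa and Csf1r, against 25% of all genes lower without overlap.

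Those remaining wild-types are the 2 libraries with a distal HOX profile, so in this comparison genotype and position cannot be told apart. With the position score as a covariate and all 6 libraries, 7 of 9 genes were negative, the median was -0.13, and 0 passed. Lyz2 then stood at -0.29 ± 0.36 and Cd14 at -0.18 ± 0.20, while C1qc (0.07 ± 0.39) and Cd68 (0.0077 ± 0.15) turned positive. Group differences in that fit rest largely on wild-type replicate 2, the only wild-type within the knock-outs' range of scores.

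**Figure D3:**
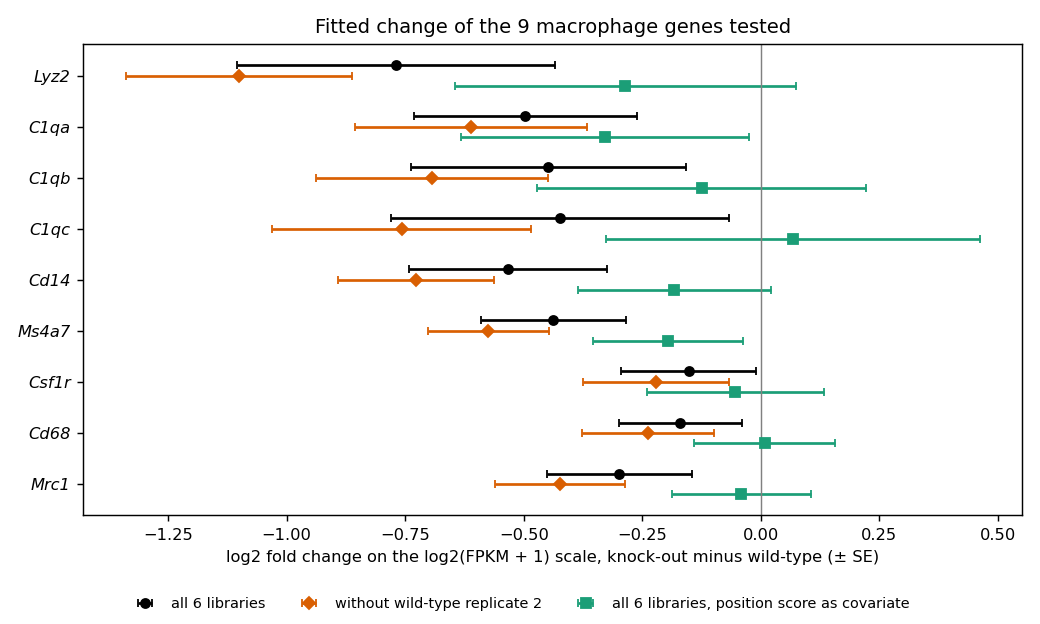
Log2 fold change ± SE (knock-out minus wild-type, log2(FPKM + 1) scale) of the 9 macrophage genes tested, from all 6 libraries, without wild-type replicate 2, and with the position score as a covariate. Estimates are more negative without wild-type replicate 2 and closer to 0 with the covariate, where C1qc and Cd68 lie above 0.

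Further macrophage genes were mixed in direction. Of 20 genes, 11 were tested, with 8 negative and 3 positive, a median of -0.12 and 0 that passed. Ctss, a protease of antigen-presenting cells, stood at -0.31 ± 0.19 and the inhibitory receptor gene Sirpa at -0.27 ± 0.16. Maf, a transcription factor gene that macrophages share with other cells, ran the other way, with 7.22, 5.49 and 7.43 FPKM in knock-out libraries, against 3.48, 6.19 and 2.19 FPKM in wild-type libraries.

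Relative to Ptprc, which marks all leukocytes, some members separated by genotype. Ptprc itself stood at 5.22, 2.96 and 5.29 FPKM in knock-out libraries, against 5.89, 3.84 and 3.22 FPKM in wild-type libraries (0.05 ± 0.25, adjusted p = 0.945, limma). The ratio of C1qa to Ptprc, each with 1 FPKM added, was 1.27, 2.02 and 2.10 in knock-out libraries, against 2.33, 2.34 and 3.05 in wild-type libraries. For Cd14 it was 2.70, 3.25 and 2.75 in knock-out libraries, against 3.34, 3.55 and 6.79 in wild-type libraries. In both, the knock-outs lay below all wild-types (exact permutation p = 0.1 each, the smallest possible), 2 of 10 genes, against 1.24% of all genes lower without overlap on this scale. The margin was narrow in each, and Ms4a7 overlapped once divided by Ptprc (exact permutation p = 0.3).

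Other cell types also differed between the libraries, and their part in the macrophage values was not tested. All 7 B and plasma cell genes were negative, against 55.4% of all genes tested, with a median of -0.70 and 0 that passed. Their summed level was 54.3 to 97.2 FPKM in knock-out and 82.4 to 242 FPKM in wild-type libraries. As for Lyz2 and the C1q chains, wild-type replicate 1 was highest and wild-type replicate 2 lay within the knock-out range. All 5 T cell genes tested were positive, with a median of 0.67, and the 6 T cell genes in the table summed to 12.5 to 20.4 FPKM in knock-out and 5.32 to 14.2 FPKM in wild-type libraries. Adipocyte genes summed to 44.2 to 83.6 FPKM in knock-out and 6.49 to 32.4 FPKM in wild-type libraries. Of the 6 adipocyte genes 4 were tested, and all 4 were higher without overlap, against 7.13% of all genes tested. Smooth muscle genes summed to 499.8 to 783 FPKM in knock-out and 378 to 615 FPKM in wild-type libraries.

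Neutrophils also express Lyz2, and their part in its level was not tested. On the neutrophil list, S100a8 and S100a9, named after their values were seen, were at most 0.15 and 0.11 FPKM and at 0 in 3 and 5 libraries. Ly6g, on the same list, stood at 3.2, 8.75 and 6.28 FPKM in knock-out libraries, against 189, 8.55 and 268 FPKM in wild-type libraries. Of the 7 neutrophil genes found in the table, 2 were tested, Ly6g and Cxcr2, and 0 passed. Cxcr2 did not follow Ly6g, with 3.09, 3.09 and 2.43 FPKM in knock-out libraries, against 3.11, 2.96 and 2.4 FPKM in wild-type libraries (0.02 ± 0.13, adjusted p = 0.960, limma). On the list of long-lived resident macrophage genes, Timd4, named likewise, was at most 0.10 FPKM. Cbr2, on the same list, stood at 2.45, 4.46 and 3.98 FPKM in knock-out libraries, against 14.8, 4.58 and 18.1 FPKM in wild-type libraries (-1.39 ± 0.47, adjusted p = 0.396, limma).

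**Figure D4:**
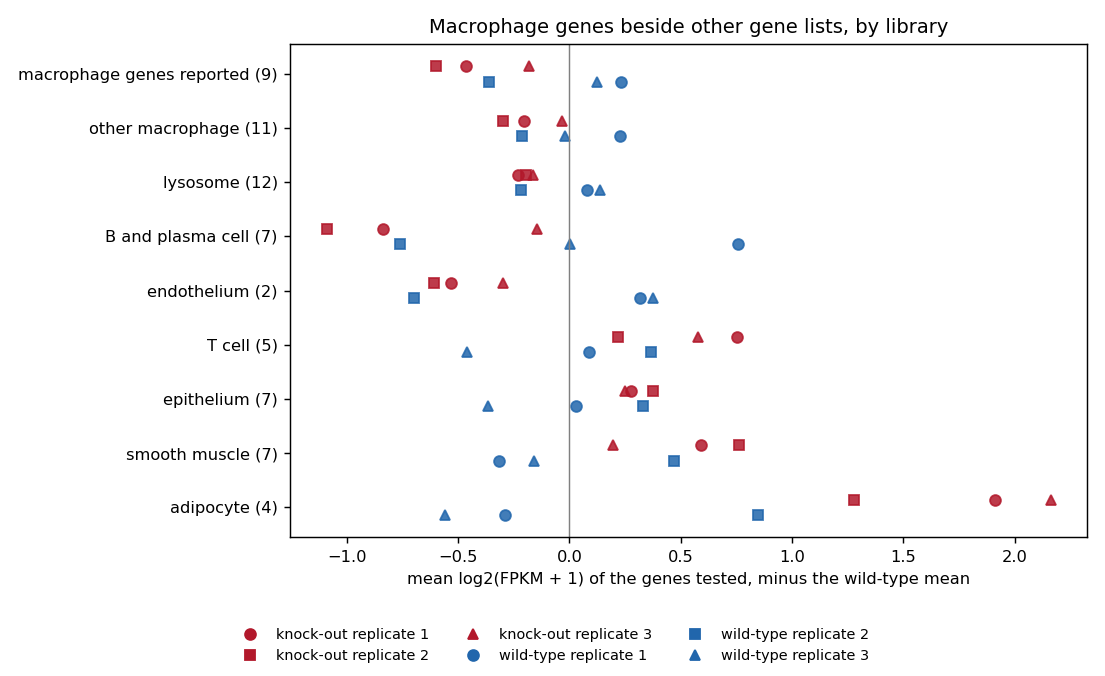
Mean log2(FPKM + 1) of the genes tested on each list, minus the mean of the 3 wild-type libraries, by library; the number of genes tested is in parentheses. For the 9 macrophage genes the 3 knock-outs lie between -0.60 and -0.18, against 0.23, -0.36 and 0.13 in wild-type replicates 1, 2 and 3. Wild-type replicates 1 and 3, but not 2, also lie above all knock-outs for other macrophage, lysosome, B and plasma cell, and endothelium genes. For T cell, epithelium, smooth muscle and adipocyte genes, wild-type replicates 1 and 3 lie below all knock-outs.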

How the data were processed

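RNA was measured by polyA-selected RNA-seq in mouse colon, with 3 libraries from knock-outs of Zfp280c and 3 from wild-types. Gene levels are FPKM as the authors deposited them, per the file headers, with 2 decimals and 1 column per library. Per the submitters' processing notes the tools were HISAT, Bowtie2, HTSeq and edgeR, without versions, roles or order, and the mouse build is not given in the sources used here. No sequences or positions are printed. Some low values fell on steps, as S100a8 held only 0 or 0.15 FPKM. Depth was not estimated from such steps and stays unknown.

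Values were taken as log2(FPKM + 1), genes with a mean of at least 1 FPKM over the 6 libraries were kept (11366 of 17383), and the genotypes were contrasted by limma's moderated test with a variance trend (limma 3.58.1, R 4.3.3), with Benjamini-Hochberg adjustment over all genes tested and a threshold of 0.05. The procedure was tested on simulated data with independent noise in each gene and library. Those data held no shared shift between libraries, so they do not bear on such a shift here. Exact two-sided permutation tests over libraries used SciPy 1.17.1. Levels carry an SD and log2 fold changes an SE, and values of list genes given alone are log2 fold changes.

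Besides the 10 members, each list's 4 genes with the lowest unadjusted p were eligible for naming, as were ligands, partners and close relatives of members, Ptprc, the HOX genes of the position score and the 8 genes most like the set. A gene eligible by this rule is not reported here; its lists were counted with it. Members, lists and tests were chosen with earlier results of these data known. Alternatives were other pseudocounts (0.1, 0.5) and minimum levels, rescalings, variance settings, a replicate block, the position score, levels relative to Ptprc and removal of each library.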

Additional observations from a re-analysis of the deposited data

How the results depend on the processing

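With all 6 libraries, 0 genes passed in limma over all genes (1420 at an unadjusted p under 0.05), and this held for the members under every alternative except one removal. Removing 1 library gave 0 to 816 genes called lower, 0 to 1045 called higher, 0 to 3 macrophage genes called lower and 0 called higher, and a macrophage median between -0.61 and -0.29. The upper counts, and the calls for Lyz2 (-1.10), Cd14 (-0.73), Ms4a7 (-0.58) and Zfp280c (-1.75), came without wild-type replicate 2. With the position score the macrophage median was -0.13, and C1qc (0.067) and Cd68 (0.0077) turned positive; the cause was not tested. Relative to Ptprc the difference of Cd163 turned to -0.0022. The 3 rescalings left all 9 genes tested negative. A minimum mean of 5 FPKM left 5 of them to test, and a minimum mean of 0.1 FPKM added Cd163 (0.04, adjusted p = 0.872). Mrc1 had no value without wild-type replicate 1 or 3, where it fell under the minimum.

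Over all genes, same-numbered libraries did not deviate together (correlations of -0.453, -0.137 and 0.151 for replicates 1, 2 and 3). This does not settle whether the numbers mark pairs. The replicate block lowered the SE of C1qb (0.29 to 0.19), C1qc (0.36 to 0.19) and Cd14 (0.21 to 0.11). It raised that of Cd68 (0.13 to 0.15) and Mrc1 (0.153 to 0.156). With the replicate block, 0 genes were called (1242 at an unadjusted p under 0.05), and Cd14 stood at -0.53 with an adjusted p of 0.453. Unknown depth limits what can be said of Mrc1 and Cd163, whose values are near or under 1 FPKM.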

Other observations

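The chemokine and cytokine genes of macrophages were mixed in direction. Of 22 listed, 8 were tested, with 5 positive and 3 negative, a median of 0.17 and 0 that passed in limma, although 1 had an unadjusted p under 0.05. That gene was Cxcl9, an interferon-induced chemokine gene, with 2.24, 1.13 and 1.59 FPKM in knock-out libraries, against 0.89, 0.94 and 0.45 FPKM in wild-type libraries. All knock-outs lay above all wild-types (0.58 ± 0.20, adjusted p = 0.396, limma), against 7.13% of all genes higher without overlap. Tnf, Il1b, Il6, Il10 and Il12b, named after their values were seen, were each under the minimum level for testing. Of the listed genes under that level, Tnf was higher without overlap (knock-out 1.03, 0.84 and 1.15 FPKM, wild-type 0.82, 0.7 and 0.59 FPKM). Ccl2 and Il23a, named likewise, were lower without overlap. Il23a stood at 0.08, 0 and 0.08 FPKM in knock-out libraries, against 0.28, 0.12 and 0.12 FPKM in wild-type libraries. Of all genes tested, 7.13% were higher and 9.79% lower without overlap. The shares among genes under the minimum level were not computed.

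Of 7 monocyte genes 2 were tested, with 1 negative and 1 positive, and 0 passed. Ly6c2 stood at 1.55, 0.72 and 1.44 FPKM in knock-out libraries, against 4.31, 0.97 and 3.93 FPKM in wild-type libraries (-0.76 ± 0.40, adjusted p = 0.435, limma). Ccr2, the chemokine receptor by which monocytes enter tissue, was picked once its values were known, and read 0.38, 0.26 and 0.51 FPKM in knock-out libraries, against 0.91, 0.64 and 1.02 FPKM in wild-type libraries. The groups of Ccr2 did not overlap, against 9.79% of all genes tested that were lower without overlap. Its mean was under the minimum for testing, and the share among such genes was not computed. Plac8 had a positive estimate, with 1782, 1870 and 1476 FPKM in knock-out libraries, against 1546, 1549 and 1394 FPKM in wild-type libraries. Its log2 fold change was 0.19 ± 0.12 (adjusted p = 0.495, limma), and its groups overlapped. Plac8 stood above the epithelial gene Epcam (917 to 1061 FPKM) and far above Ly6c2 and Ccr2. Which cells its RNA came from was not tested, so its direction cannot be read as that of monocytes.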
